A study of Mus musculus with 8 samples.

Results

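The genes described here encode the cell cycle, replication and spindle machinery, followed from each parental allele in single mouse blastocysts. They were taken by symbol: autosomal cyclins A, B, D and E, Cdk, Cdc, Mcm, Orc, Aurk, Plk, Bub, Mad2l, Cenp and Kif genes, 139 of the 22810 genes counted. Naming does not follow function exactly, so the 139 genes were sorted into 12 groups by role, and several groups (Cdc42 and its effectors, transport and ciliary kinesins, splicing or transcription factors named Cdc, CDKs outside the division cycle) hold genes with other work to do.

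RNA-seq was performed on whole single embryos at embryonic day 3.5 that were F1 hybrids of C57BL/6 (B6) and Mus musculus castaneus (cast). There were 3 forward embryos with a B6 mother and a cast father, and 5 reverse embryos with a cast mother and a B6 father. No embryo carried a transgene or had been cultured, and each was 1 library of all its cells, so trophectoderm and inner cell mass were measured together. The question the crosses address is which genes are expressed according to parental origin. Reads spanning a single nucleotide polymorphism (SNP) between the strains were assigned to an allele, which gave 1060063 to 1632695 reads per embryo and 447370 to 952171 per allele. A read count therefore depends on how many SNPs a gene holds, and levels were compared between embryos but not between genes. Levels are reads of both alleles counted per 1e+06 autosomal SNP-spanning reads of the embryo (CPM).

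Cyclins bind and activate cyclin-dependent kinases: D cyclins with Cdk4 and Cdk6 and E cyclins with Cdk2 drive entry into S phase, and A and B cyclins with Cdk1 drive S phase and mitosis. The origin recognition complex (Orc1 to Orc6) and Cdc6 load the Mcm helicase onto DNA before replication. In mitosis Plk1 and the Aurora kinases act on centrosomes, spindle and kinetochores, which are built on Cenpa nucleosomes, while kinesin motors assemble the spindle. Checkpoint proteins (Mad2l1, Bub1b, Bub3) hold Cdc20 and the anaphase-promoting complex inactive until every chromosome is attached. In the early mouse embryo these proteins are first supplied by the oocyte and are then made from the embryo's own genes during the cleavage divisions.

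Before the results, the embryos that stood apart are given. Reverse embryo 1 held the highest of the 8 levels for 33.9% of the 12565 autosomal genes tested and the lowest for 23.5%, where each other embryo held the highest for 7.11% to 12.04%. Its summed level of 8 trophectoderm markers was 1350 CPM against 4044 to 5387 CPM in the other 7. Krt8 and Krt18 carried most of that sum elsewhere. Both were lowest in reverse embryo 1, as were Cdx2 (3.41 CPM against 6.26 to 23.2) and Eomes (50.4 against 55.2 to 366). Tead4 (396 CPM against 196 to 308) and Tfap2c (86.5 against 28.0 to 83.3) were highest there, and Gata3 and Elf5 lay inside the range. Its 8 inner cell mass and epiblast markers summed to 992 CPM against 711 to 1168. Reverse embryo 3 held the lowest level for 22.7% of genes. These levels do not include the scaling factors (TMM) used in the tests. The factors of the paternal and maternal libraries were 0.80 and 0.90 in reverse embryo 3 and 1.11 and 1.14 in reverse embryo 1. Forward embryo 1 had 721 CPM of 8 leukocyte and macrophage markers against 4.84 to 36.8 CPM elsewhere, and 99.7% of those reads were of the maternal allele. Lyz2 alone gave 661 CPM of that sum, and every other marker of the list was at most 17.5 CPM there. Oocyte and polar body markers summed to 16.4 to 61.6 CPM, cumulus markers to 15.0 to 31.5, uterus and oviduct markers to 103 to 227, primitive endoderm markers to 177 to 339 and red blood cell markers to at most 0.969. B6 alleles made up 57.4% to 58.3% of all reads in every embryo, and the part of read mapping in this share was not tested. Fewer cells of a type and less RNA per cell cannot be told apart in whole embryos.

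Of the 139 genes, 122 reached 10 reads in 1 or more of the allele libraries and were tested. Not tested were Ccna1, Ccnb1ip1, Cdk15, Mcm6, Plk2, Plk3 and the kinesin genes Kif1a, Kif3c, Kif5a, Kif5c, Kif6, Kif9, Kif12, Kif16bos, Kif21a, Kif24 and Kif26b, with 1 to 60 reads each over all 8 embryos. Mcm6, a helicase subunit, had 14 reads in total although the other tested subunits of its complex, Mcm2 to Mcm5 and Mcm7, had 729 (Mcm4) to 8653 (Mcm2). The tested genes were more deeply covered than the average gene, with 720 reads summed over embryos for the median gene against 309 among all genes tested. Together the 139 genes took 1.2% to 1.44% of the autosomal reads of an embryo.

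No effect of parental origin was called for the cell cycle machinery in the main fit. That alone does not show equal expression from both alleles. None of the 122 genes was called between paternal and maternal alleles at an adjusted p of 0.1 (edgeR quasi-likelihood test, Benjamini-Hochberg over all 12565 genes), where 179 genes were called in all (1.42%). At an unadjusted p of 0.05 there were 5 of the 122 (4.10%), against 7.32% of all genes. The median paternal over maternal log2 fold change was 0.02 over the 122 genes and -0.01 over all genes, with 64 genes above 0 and 58 below. A fold change over 2 in either direction was estimated for 7 of the 122 genes (5.74%) and for 16.2% of all genes. DESeq2 called 1 of the 122 genes, and a fit that pairs both alleles through an embryo term called 2 (1.64%, against 3.10% of all genes). Those 2 were Cdc42ep3 and Ccnd2, and both were estimated higher from the paternal allele.

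The 25 of 38 tested core genes for which equivalence was called span the cycle from licensing to cytokinesis. Those without the call, among them Orc1, Orc2, Cdc45, Cdk2, Plk4, Bub1b and Mad2l1, likewise reach from licensing to mitosis. Equivalence, here a fold change shown to lie within 2-fold in both directions, was called for 68 of the 122 genes (55.7%) against 35.6% of all genes, at an adjusted p of 0.1. This share rises with depth: among the 4679 genes between 282 and 1348 reads, the middle range of the tested cell cycle genes, it was 57.3%, and among the 60 cell cycle genes in that range it was 66.7%. With a term for each embryo 86 were called (70.5%, against 45.3% of all genes). The count fell to 26 without forward embryo 3 (21.3%, against 12.9% of all genes), 32 without forward embryo 2 (26.2%, against 14.7%) and 36 of 120 without forward embryo 1 (against 17.1%). No gene met the stricter margin of 1.5-fold (edgeR quasi-likelihood test), although 20 of the 122 did at an unadjusted p of 0.05. By group, equivalence was called for 13 of 16 replication licensing and origin factors, 9 of 11 mitotic kinesins, 11 of 14 cell cycle kinases and their activators or phosphatases, 3 of 4 mitotic kinases, 9 of 13 checkpoint and anaphase-promoting complex genes and 4 of 8 cyclins. It was called for 6 of 17 centromere protein genes, 5 of 13 transport kinesins, 4 of 11 other CDKs, 2 of 11 genes of Cdc42 and its effectors and 1 of 3 splicing or transcription factors. Group names are approximate: the cell cycle kinases as sorted also hold Cdc34, Cdc37 and Cdc37l1, and the checkpoint group holds Cdc123.

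Mcm2, a subunit of the replicative helicase, illustrates an evenly expressed gene. Forward embryo 1 held 764 maternal and 493 paternal reads, followed by 572 and 379 in forward embryo 2, and 691 and 530 in forward embryo 3. The reverse embryos had 256 and 335, 541 and 696, 629 and 672, 568 and 768, and 335 and 424 maternal and paternal reads, in embryos 1, 2, 3, 5 and 7. The B6 allele thus had the larger count in all 8 embryos, whichever parent it came from. The paternal over maternal log2 fold change was -0.12 (SE 0.26, adjusted p for equivalence = 0.0213 by edgeR). The B6 share of its reads was 56.9% ± 2.8 (SD, n = 8), close to the share of all reads.

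Cdk1, the mitotic kinase partner of B cyclins, had 330 to 653 reads in the forward and 285 to 1108 in the reverse embryos. The paternal allele gave 45.5% ± 4.2 of forward reads (SD, n = 3) and 56.7% ± 4.3 of reverse reads (SD, n = 5), so the larger share was of the B6 allele in both crosses. The log2 fold change by parent was 0.07 (SE 0.36, equivalence adjusted p = 0.0447, edgeR). Cenpa, the histone variant that marks centromeres, had a paternal share of 41.5% ± 0.90 in 3 forward and 57.0% ± 8.3 in 5 reverse embryos, with equivalence called (edgeR adjusted p = 0.0393). Kif23, a motor of cytokinesis, differed by -0.10 (SE 0.21) between paternal and maternal alleles on the log2 scale. Ccna2, Ccnb2, Mcm3, Mcm7 and Cdc25c likewise lay within 0.13 of 0 on that log2 scale, with equivalence called for each.

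**Figure D1:**
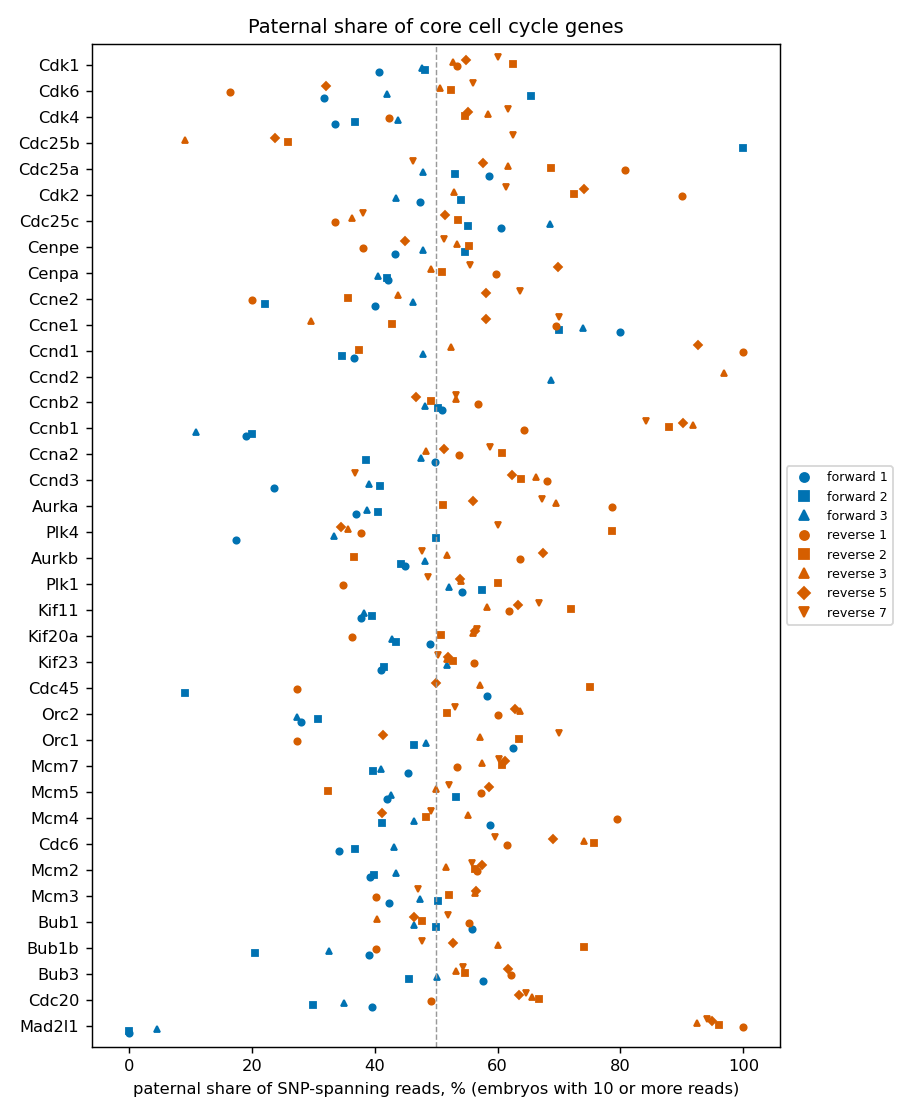
Paternal share of SNP-spanning reads, in percent, on the horizontal axis for each of the 38 tested core cell cycle genes, with 1 symbol per embryo that had at least 10 reads; forward embryos are blue and reverse embryos orange, and the dashed line marks 50%. Most genes lie around the line in both crosses, whereas Ccnb1 and Mad2l1 lie far to the left in forward and far to the right in reverse embryos, as the B6 allele does.

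Among the core genes for which equivalence was not called were thinly covered D and E cyclins. Ccnd2, a D cyclin, had 0 maternal and 5 paternal reads, 0 and 2, and 5 and 11 in the 3 forward embryos. In reverse embryos 1, 2, 3, 5 and 7 it had 0 and 2, 0 and 2, 1 and 30, 0 and 4, and 0 and 1. Paternal reads were the more numerous in every embryo, but 47 of its 63 reads came from 2 embryos, forward 3 and reverse 3. The log2 fold change was 3.02 (SE 1.02, edgeR adjusted p = 0.272), and 3.53 (SE 1.06, adjusted p = 0.0936) with a term for each embryo. The other D and E cyclins had estimates of 0.16 (SE 0.62) for Ccnd1, -0.14 (SE 0.31) for Ccnd3, 0.75 (SE 0.50) for Ccne1 and -0.74 (SE 0.51) for Ccne2. For Ccnd3 equivalence was called (edgeR adjusted p = 0.0356). Of the kinases of these cyclins, Cdk2 and Cdk6 had 0.46 (SE 0.42) and -0.37 (SE 0.49), neither called different nor equivalent. For Cdk4 equivalence was called.

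Cdc42ep3 encodes an effector of the Cdc42 GTPase, a regulator of cell shape, and is not a cell cycle gene. It had 29 maternal and 15 paternal reads, 32 and 25, and 46 and 23 in the forward embryos. In reverse embryos 1, 2, 3, 5 and 7 it had 6 and 91, 15 and 81, 2 and 39, 5 and 65, and 1 and 39. The B6 allele was higher in all 8 embryos, and its excess was greater where B6 was the father. The fit thus gave both a strain effect (log2 cast over B6 -1.72, SE 0.39, edgeR adjusted p = 0.0039) and a parent estimate of 1.26 (SE 0.38, adjusted p = 0.164), the latter called at 1.41 (SE 0.32, adjusted p = 0.011) with a term for each embryo. Gm17315 lies on the opposite strand, and the reads of both cannot be told apart if strand was not used in counting.

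**Figure D2:**
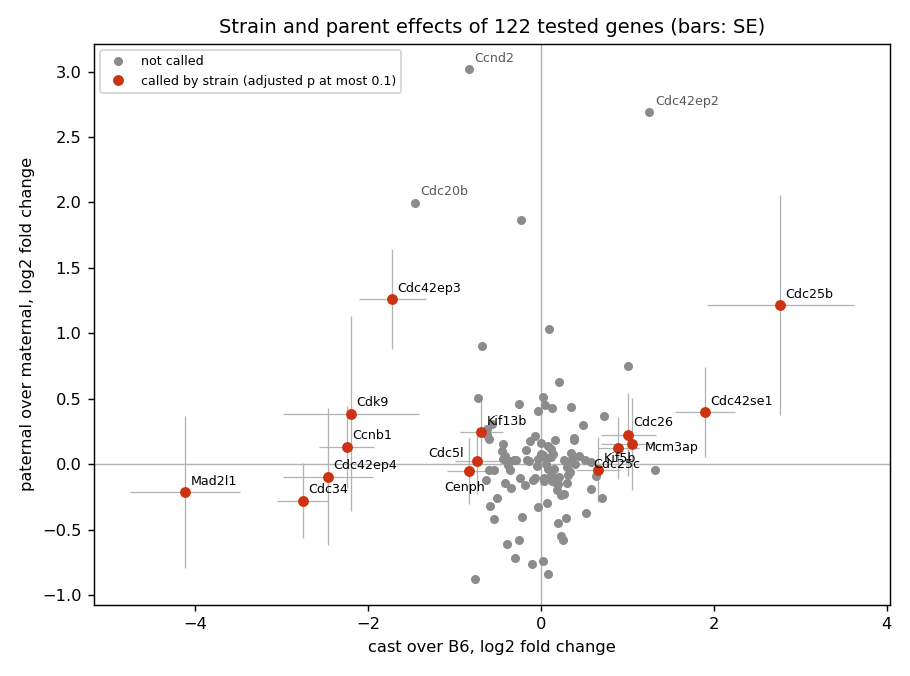
Log2 fold change of cast over B6 (horizontal) against paternal over maternal (vertical) for the 122 tested genes; red points were called between strains, and their bars are standard errors. The 15 red points spread along the horizontal axis from -4.12 (Mad2l1) to 2.77 (Cdc25b), whereas no gene was called on the vertical axis.

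Between the strain alleles, 15 of the 122 genes were called (12.3%), against 15.5% of all genes tested. The B6 allele was higher for 9 (7.38%, against 11.0% of all genes) and the cast allele for 6 (4.92%, against 4.45%). The 9 were Mad2l1, Cdc34, Cdc42ep4, Ccnb1, Cdk9, Cdc42ep3, Cenph, Cdc5l and Kif13b, and the 6 were Cdc25b, Cdc42se1, Mcm3ap, Cdc26, Cdc25c and Kif5b. The median log2 cast over B6 was 0.04 over the 122 genes and -0.06 over all genes. With a term for each embryo 28 were called (23.0%, against 25.5% of all genes), the 15 among them, 17 toward B6 and 11 toward cast. The fit scales the alleles to each other. With 1 library size for both alleles of an embryo the median of all genes moved to -0.40, and 18 genes were called, 16 toward B6 and only Cdc25b and Cdc42se1 toward cast. The other 4 kept positive estimates there but were not called, at 0.56 for Cdc25c, 0.67 for Cdc26, 0.33 for Kif5b and 0.72 for Mcm3ap. The count was 8 without forward embryo 2 (6.56%, against 10.6% of all genes) and 9 without forward embryo 3 (7.38%, against 10.4%).

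Mad2l1, the checkpoint protein that binds and restrains Cdc20, was read almost only from the B6 allele. It had 14 B6 and 0 cast reads, 16 and 0, and 42 and 2 in the forward embryos. The reverse embryos 1, 2, 3, 5 and 7 had 17 and 0, 24 and 1, 37 and 3, 37 and 2, and 16 and 1 B6 and cast reads. In all 8 embryos B6 reads were the more numerous, and the groups by allele did not overlap. The log2 cast over B6 was -4.12 (SE 0.63, edgeR adjusted p = 6.83e-05) and remained called under all alternatives tried. The gene (chr6:66535390-66547220, plus strand) overlaps no other annotated gene but has 1 near-identical copy (at least 95% identity over at least 200 bases) elsewhere in the genome, Gm42430. The part of that copy in the allele counts was not tested.

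Ccnb1, the B cyclin that activates Cdk1 at mitosis, had 1919 B6 and 321 cast reads. B6 reads numbered 165, 184 and 296 in the forward embryos against 39, 46 and 36 cast reads. In reverse embryos 1, 2, 3, 5 and 7 they numbered 99, 312, 439, 211 and 213 against 55, 43, 39, 23 and 40. The B6 share was 83.6% ± 8.9 (SD, n = 8), with reverse embryo 1 lowest at 64.3%, and log2 cast over B6 was -2.25 (SE 0.32, edgeR adjusted p = 2.67e-05). Sequence near-identical to the Ccnb1 transcript lies at 4 other annotated genes, Ccnb1-ps, Gm12856, Gm8416 and Gm7483. Ccnb2, the other mitotic B cyclin, was not called, with 1819 B6 and 1744 cast reads and a log2 value of 0.27 (SE 0.27, adjusted p = 0.636). Cenph, a subunit of the constitutive centromere complex, lies 2750 bases from Ccnb1 on the same strand of chromosome 13 (chr13:100759674-100775899 and chr13:100778650-100786570). It was also B6-biased, with a B6 share of 69.1% ± 4.6 (SD, n = 8), higher B6 reads in 8 of 8 embryos and a log2 value of -0.83 (SE 0.25, edgeR adjusted p = 0.0339).

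Cdc34, the ubiquitin-conjugating enzyme of the SCF ligase that degrades CDK inhibitors, had 967 B6 and 115 cast reads. The B6 allele gave 144, 115 and 141 reads against 8, 13 and 17 in the forward embryos. It gave 113, 148, 111, 119 and 76 against 7, 15, 23, 21 and 11 in reverse embryos 1, 2, 3, 5 and 7. The embryos varied little, at a B6 share of 89.2% ± 4.1 (SD, n = 8), and the log2 value was -2.76 (SE 0.30, edgeR adjusted p = 4.65e-07). It overlaps no annotated gene. Cdk9, the kinase that releases paused RNA polymerase II, had 74 B6 and 12 cast reads and was called (adjusted p = 0.0782), but not in 5 of the 8 fits that left out an embryo.

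The 3 phosphatases that remove inhibitory phosphates from CDKs had separate estimates, and 2 were called. Cdc25a was not called between strains, with 569 B6 and 429 cast reads and a log2 value of 0.05 (SE 0.25, edgeR adjusted p = 0.951). Cdc25b was read mostly from cast. In forward embryos it had 0 B6 reads against 6, 15 and 8 cast reads, and in reverse embryos 2, 8, 1, 5 and 10 against 7, 23, 10, 16 and 6. Reverse embryo 7 alone had more B6 reads, and the log2 value was 2.77 (SE 0.85, adjusted p = 0.0354), lost without forward embryo 2 (adjusted p = 0.213). Cdc25c had 407 B6 and 579 cast reads, with more cast reads in 6 of 8 embryos and a log2 value of 0.89 (SE 0.24, adjusted p = 0.0145). Spef1 overlaps Cdc25b and Gm3550 overlaps Cdc25c on the opposite strand.

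Cdc26, a small subunit of the anaphase-promoting complex, had 183 B6 and 266 cast reads, with a log2 value of 1.01 (SE 0.32, edgeR adjusted p = 0.0426). Slc31a1 overlaps it on the opposite strand, and Gm9174 is a near-identical copy. Among the genes outside the division cycle, Cdc42se1, a small Cdc42 effector, had 103 B6 and 284 cast reads and more cast reads in 8 of 8 embryos (log2 1.90, SE 0.35, adjusted p = 0.000562). Cdc42ep4 had 202 B6 and 27 cast reads (log2 -2.46, SE 0.52, adjusted p = 0.00228). Mcm3ap, an mRNA export protein named for its binding of Mcm3, had more cast reads in 8 of 8 embryos (log2 1.05, SE 0.35, adjusted p = 0.0574). Cdc5l, a splicing factor with 10 near-identical copies elsewhere, Kif13b and Kif5b, both cargo motors, had log2 values of -0.74, -0.69 and 0.66 and were each lost in at least 6 of the 8 fits that left out an embryo. Calls were also lost without forward embryo 3 for Cdc25c, without forward embryo 1 or 2 for Cenph, without forward embryo 2 or 3 or reverse embryo 7 for Cdc26, and without forward embryo 2 or reverse embryo 5 for Mcm3ap. In all, 11 of the 15 genes overlap another annotated gene, as do 84 of the 139 genes of the whole list.

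**Figure D3:**
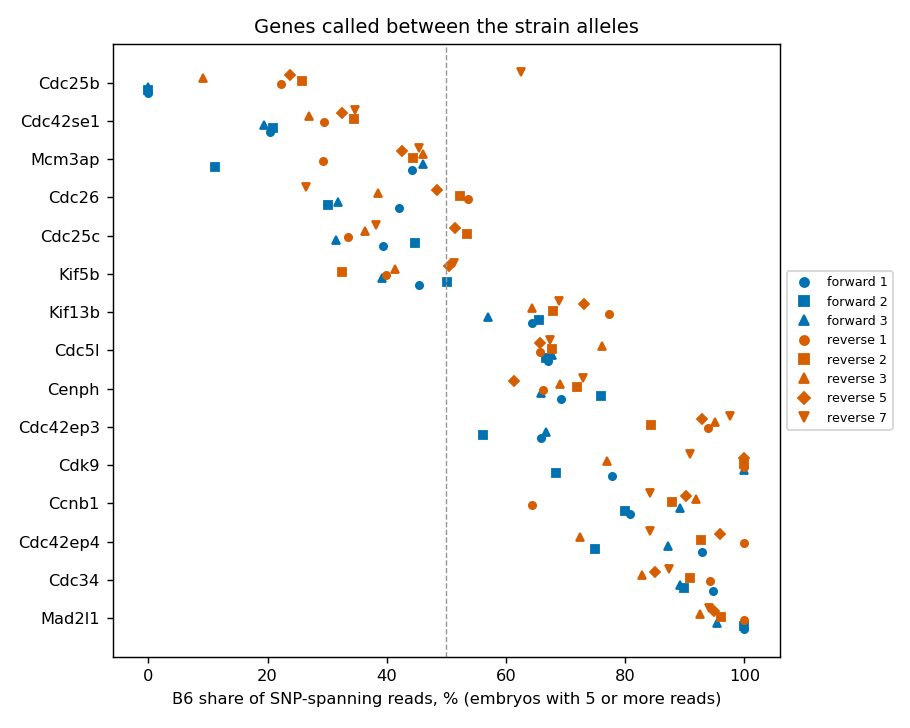
B6 share of SNP-spanning reads, in percent, for the 15 genes called between the strain alleles, with 1 symbol per embryo that had at least 5 reads; forward embryos are blue, reverse embryos orange, and the dashed line marks 50%. For Mad2l1, Cdc34 and Ccnb1 all 8 embryos lie above 64%, and for Cdc42ep3 the reverse embryos lie to the right of the forward embryos.

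No replication licensing or origin factor, mitotic kinase or mitotic kinesin was called between strains, over 16, 4 and 11 tested genes. The share over all genes tested was 15.5%, and these groups are small. In the same order, the log2 values of the groups ranged from -0.60 to 0.70, -0.45 to 0.38 and -0.44 to 0.35. With a term for each embryo Orc2 and Kif11 were called toward B6 (-0.56, SE 0.20, and -0.43, SE 0.17) and Plk1 toward cast (0.44, SE 0.16). Orc2 and Kif11 had more B6 reads in 8 of 8 embryos, as did 25 of the 122 tested genes (against 13.8% of all genes tested).

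Reads from 1 allele alone in a single embryo were uncommon. Among the 107 tested genes not called between strains, 721 values of a gene in an embryo rested on at least 20 reads, and in 7 of them (0.971%) at least 90% of reads came from 1 parental allele, against 3.99% of 53753 such values over all genes. In all 7 values the allele with more reads was B6, paternal in reverse and maternal in forward embryos. The part of strain or read mapping in them was not tested. The tested cell cycle genes are more deeply read than the average gene, and shares from few reads vary more. Cdk18, a CDK outside the division cycle, had in reverse embryo 2 0 maternal and 54 paternal reads, which allows a maternal share of up to 5.56%, whereas reverse embryo 3 had 62 and 104. Cdc42bpa, a Cdc42-binding kinase, had in forward embryo 2 22 maternal and 0 paternal reads, and 6 and 65 in reverse embryo 1. The B6 allele was the larger in both. Cdk2 had 5 and 45 in reverse embryo 1, Ccnd1 2 and 25 in reverse embryo 5, Mcm9 2 and 20 in reverse embryo 7, and Ccnd2 1 and 30 in reverse embryo 3. These limits cover counting error only, since reads amplified by PCR are not independent molecules.

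The crosses were also compared in total level, summed over both alleles. None of the 122 genes was called between reverse and forward embryos (edgeR, adjusted p at most 0.1), where 13 of all genes were (0.103%), and 3 of the 122 (2.46%) passed an unadjusted p of 0.05, against 7.38% of all genes. DESeq2 called none of the 122 and 130 of all genes (1.03%). Ccnd1 came closest, with 49.5, 23.1 and 38.4 CPM in forward embryos and 10.2, 10.3, 14.3, 20.8 and 6.78 CPM in reverse embryos. The log2 reverse over forward was -1.53 (SE 0.46, edgeR adjusted p = 0.419), so this difference was not called. The gene LTO1 overlaps Ccnd1 on the opposite strand. Cenpe, the kinetochore kinesin, had 431, 399 and 330 CPM in forward and 198 to 285 CPM in reverse embryos (log2 -0.73, SE 0.28, adjusted p = 0.554). With 3 and 5 embryos the median standard error was 0.41 on the log2 scale, so small differences were not detectable at this number of embryos, and litter or collection day cannot be told apart from cross.

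Reverse embryo 1 stood apart for these genes about as often as for all genes. It held the highest of the 8 levels for 43 of the 122 genes (35.2%, against 33.9% of all genes) and the lowest for 31 (25.4%, against 23.5%). The 31 included late mitotic genes: Cenpa at 172 CPM against 457 to 726 in the other 7 embryos, Plk1 at 62.7 against 116 to 326, and Cdc20, the activator of the anaphase-promoting complex, at 76.3 against 175 to 383. Bub3, Cdk1, Ccnb1, Ccnb2 and Aurka were also lowest there, as were Mcm2 (403 against 735 to 1028 CPM) and Mcm5 (46.3 against 98.3 to 174). The 43 included all 6 origin recognition genes, with Orc1 at 99.4 CPM against 9.56 to 36.4 and Orc5 at 198 against 35.5 to 72.4. They also included the spindle motors Kif11 (315 against 78.5 to 170 CPM) and Kif15 (274 against 50.5 to 116), and Bub1b (157 against 41.0 to 87.2). These are values of 1 embryo with no test.

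Cdk14, a membrane-associated CDK of Wnt signalling, was among these 43. It had 1949 CPM in reverse embryo 1 and 246 to 466 CPM in the others, with 1501 maternal and 1361 paternal reads. The group of other CDKs summed to 2848 CPM there against 652 to 1031, and without Cdk14 to 898 against 331 to 572. Mitotic kinesins summed to 1484 CPM against 623 to 953 and transport kinesins to 1809 against 651 to 1173, whereas cyclins were lower (629 against 728 to 1035) and so were centromere proteins (1510 against 1688 to 2130). Replication factors as a group lay inside the range of the other embryos, at 2134 CPM against 1957 to 2572.

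**Figure D4:**
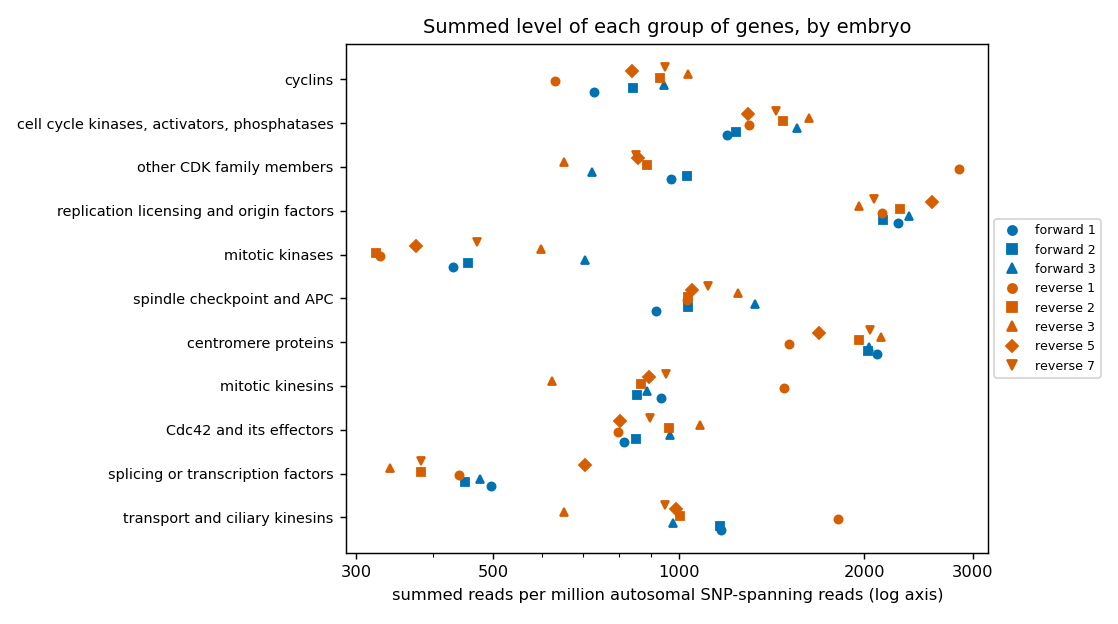
Summed level of each group of genes in each embryo, in CPM on a log axis; forward embryos are blue and reverse embryos orange. Reverse embryo 1 (orange circle) lies to the right of all others for other CDKs, mitotic kinesins and transport kinesins and to the left for cyclins and centromere proteins.

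Gene length moved with this pattern. The 12 tested genes longer than 100 kb had a median log2 ratio of 1.75 in reverse embryo 1 over the median of the other 7, and the 52 genes shorter than 20 kb one of -0.61. Over the 122 genes Spearman's rho between the ratio and gene length was 0.68, and over all 12565 genes 0.37, with medians of 0.99 and -0.46 for long and short genes. Among the other embryos rho over the 122 genes ranged from -0.46 (reverse embryo 3) to 0.21 (forward embryo 1). These are correlations across genes of the same libraries and genes are not replicates. Cdk14 spans 617 kb and Cdc20 4.45 kb.

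**Figure D5:**
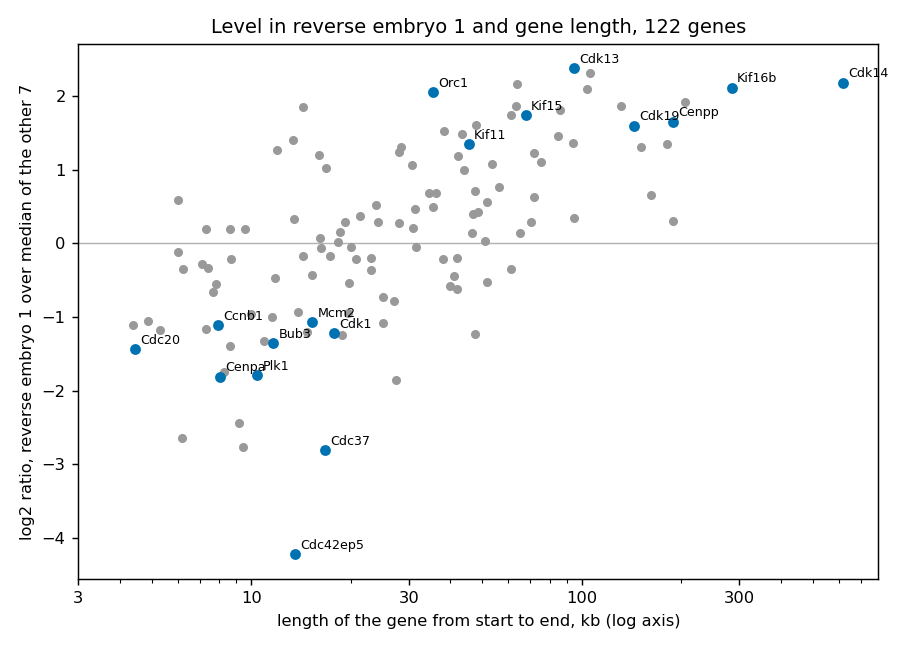
Log2 ratio of the level in reverse embryo 1 to the median of the other 7 embryos (after adding 1 CPM) against gene length in kb on a log axis, 1 point for each of the 122 tested genes, with genes named in the text in blue. Long genes such as Cdk14 and Kif16b lie above 2 and short genes such as Cdc20, Cenpa and Plk1 below -1.

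Promoters are shown for genes whose level in that embryo lay outside the other 7, in either direction. Late cell cycle genes are known to carry a cell cycle homology region (CHR), here searched as TTTGAA or TTCGAA, near CCAAT boxes (CCAAT), and S phase genes carry E2F sites, here TTTCCCGC or TTTGGCGC. The 250 bases upstream of each RefSeq start (build GRCm38.p6) were searched on both strands for 121 of the 139 genes. The 150 bases before the start follow for 3 genes lowest in reverse embryo 1 (Cdk1, Cdc20, Bub3) and 3 genes highest there (Kif11, Kif15, Orc1), 5′ to 3′ on the gene's strand, with matches on either strand in capitals. No base was part of more than 1 match.
Cdk1 (chr10:69352913-69353062, minus strand): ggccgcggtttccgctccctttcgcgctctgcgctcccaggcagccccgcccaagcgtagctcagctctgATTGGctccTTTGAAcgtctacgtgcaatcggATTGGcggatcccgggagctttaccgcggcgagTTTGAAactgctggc
Cdc20 (chr4:118437344-118437493, minus strand): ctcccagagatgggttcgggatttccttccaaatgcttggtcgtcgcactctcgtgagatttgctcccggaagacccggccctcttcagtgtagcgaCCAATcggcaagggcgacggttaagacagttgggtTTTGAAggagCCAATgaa
Bub3 (chr7:131560220-131560369, plus strand): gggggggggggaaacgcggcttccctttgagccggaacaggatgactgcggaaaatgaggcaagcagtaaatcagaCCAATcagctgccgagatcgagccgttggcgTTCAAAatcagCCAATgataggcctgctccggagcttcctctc
Kif11 (chr19:37376232-37376381, plus strand): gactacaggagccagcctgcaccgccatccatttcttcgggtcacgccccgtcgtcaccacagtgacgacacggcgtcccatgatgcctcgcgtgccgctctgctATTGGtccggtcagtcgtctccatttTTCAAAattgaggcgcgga
Kif15 (chr9:122950931-122951080, plus strand): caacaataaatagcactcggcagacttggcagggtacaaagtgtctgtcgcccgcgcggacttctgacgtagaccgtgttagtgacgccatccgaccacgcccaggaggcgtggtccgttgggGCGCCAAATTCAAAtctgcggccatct
Orc1 (chr4:108579304-108579453, plus strand): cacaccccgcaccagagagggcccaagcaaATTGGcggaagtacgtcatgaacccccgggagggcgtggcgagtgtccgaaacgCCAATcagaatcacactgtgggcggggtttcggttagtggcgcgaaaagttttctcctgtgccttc

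The 3 printed examples of genes lowest there each held a CHR-type match and 1 or more CCAAT boxes, and so did Kif11, which was highest there. Of other lowest genes named above, Ccnb2 and Mcm2 held a CHR-type match, and Cenpa, Plk1, Aurka, Ccnb1 and Mcm5 held none. Bub3 has a second RefSeq start, whose nearest 150 bases (chr7:131560344-131560493) held no match. The full 250 bases searched there did hold a CHR-type match and a CCAAT box. Kif15 held a CHR-type match beside an E2F-type match. Of the letters searched, Orc1 held CCAAT boxes only, and other forms of the E2F site were not searched. A CHR-type match occurred in 10 of 30 lowest genes with a promoter, in 8 of 40 highest genes and in 6 of 35 of the rest. Counted by window it occurred in 26 of 123 windows of these genes (21.1%), beside 17.1% of all 32851 promoter windows. By group it was found in 5 of 11 windows of mitotic kinesins and in 3 of 20 of replication factors. E2F-type matches were found in 5 of 20 windows of replication factors, in 2 of 11 of mitotic kinesins and in 1.30% of all windows, and CCAAT boxes in 14 of 20, 5 of 11 and 33.8%. A match describes letters in a window and shows no binding.

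Partners of the pathway outside the naming rule were counted in the same fits, and E2f3 alone was called by parent. Of 113 tested partners, parent calls were made for 1 of 26 CDK inhibitor and RB-E2F genes and for none of 35 replication fork or 52 mitosis partners. Over all genes tested the share called by parent was 1.42%. E2f3, a transcription factor of S phase genes, had 0 maternal and 64 paternal reads, 18 and 26, and 0 and 36 in forward embryos. In reverse embryos 1, 2, 3, 5 and 7 it had 0 and 107, 0 and 44, 0 and 19, 2 and 31, and 0 and 18. All embryos had more paternal reads, and forward embryo 2 alone had more than 2 maternal reads (log2 3.89, SE 0.78, edgeR adjusted p = 0.00751). Its gene overlaps the antisense gene Gm11365. Between strains, 7 of the 113 partners were called, against 15.5% of all genes tested. They were Pcna, Ube2s, Anapc10, Anapc5 and Rrm2 toward B6 and Rpa1 and Fbxo5 toward cast. Pcna, the sliding clamp of DNA polymerase, had 935 B6 and 61 cast reads (log2 -3.67, SE 0.41), and Ube2s, an enzyme of the anaphase-promoting complex, 240 and 25. No partner was called between the crosses.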

How the data were processed

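SMART-Seq2 libraries of single E3.5 blastocysts from reciprocal natural matings (3 forward, 5 reverse) were used. The authors aligned reads with STAR (2.5.2b in the submitters' processing notes, 2.6.0c in the study's methods) to mm10, excluded reads mapping to several places, assigned SNP-spanning reads to alleles with Allelome.Pro, and deposited raw counts of those reads per gene and allele, unnormalized. Whether counting used strand is not given in the sources used here, so overlapping genes are uncertain. The authors had removed 2 of their embryos for low mapping or few reads. No value column of the table was left unused. Symbols were matched to GENCODE M21 and RefSeq (build GRCm38) for position; 1110 of 22810 genes without a match and X-linked genes were left out of tests.

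Counts were fitted with edgeR 4.0.16 (R 4.3.3; TMM factors, quasi-likelihood test) as 16 allele libraries with terms for strain and parent, over 12565 autosomal genes that reached 10 reads in 1 or more allele libraries, with Benjamini-Hochberg adjustment over all of them and calls at 0.1. Equivalence was a pair of one-sided tests against log2 -1 and 1. Embryo totals were fitted by cross. The scripts were tested on simulated counts. Replicates are separate embryos. No 2 libraries held identical values. Near-identical copies were searched with blastn 2.17.0.

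Alternatives were DESeq2 1.42.0, RLE factors, 1 library size per embryo, 3 filters on low counts, a replicate block, a 1.5-fold margin and leaving out each embryo. Both alleles of an embryo are paired by origin, and their deviations from the group means correlated at 0.07 to 0.41. Named genes are those called in a comparison (at most 25 each) and 39 core genes fixed as a panel. Members, role groups, partner and marker lists were chosen with earlier results of these data known. Counting intervals and limits cover counting error only.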

Additional observations from a re-analysis of the deposited data

Results flagged for a closer look

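Values of the core and called genes and of the role groups were screened among the 5 reverse embryos for a value that stood far from the other 4 (Dixon's criterion, 0.710 for 5 values). Of 108 such sets, 17 held one (15.7%), where chance gives about 1 in 20, and 7 of the 17 were in reverse embryo 1. The forward cross, with 3 embryos, was not screened.

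In reverse embryo 1, Cdk4, the kinase of D cyclins, was at 83.8 CPM against 173 to 189 in the other reverse embryos. Orc1 was at 99.4 CPM against 9.56 to 26.3, Orc2 at 184 against 67.6 to 88.0, and the other CDKs summed to 2848 against 652 to 889. The B6 (paternal) share was low there for Ccnb1, at 64.3% against 84.2% to 91.8%, for Cdc20, at 49.1% against 63.4% to 66.7%, and for Mcm3ap, at 29.4% against 42.5% to 46.0%. This embryo also had 1350 CPM of trophectoderm markers, and the part of its composition in these values was not tested.

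In reverse embryo 3, Aurka was at 188 CPM against 105 to 115, Ccnd2 at 21.2 against 0.969 to 3.08 and Cdc25a at 64.2 against 90.1 to 92.5. The paternal share of Cdc5l was 76.2% there against 65.7% to 67.8%, and that of Mcm2 51.7% against 55.9% to 57.5%. In reverse embryo 5, Cdc5l was at 632 CPM against 254 to 335, with its group of splicing or transcription factors at 704 against 341 to 441, and Cdc45, a helicase activator, was at 15.4 against 7.49 to 9.56. In reverse embryo 7, Cdk6 was at 24.2 CPM against 49.7 to 57.7, and the paternal share of Ccnd3 was 36.8% against 62.4% to 68.1%.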

How the results depend on the processing

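Genes called by parent numbered 0 in the main analysis, 1 with DESeq2, 2 with no filter on low counts and 2 with the replicate block (a term for each embryo), and 0 whichever embryo was left out. Genes called by strain numbered 15, 28 with the replicate block, and 8 to 16 with an embryo left out. Equivalent genes numbered 68, 86 with the replicate block, 0 at the 1.5-fold margin, and 26 (without forward embryo 3) to 92 (without reverse embryo 1) with an embryo left out; the cause was not tested. None was called by cross under any alternative run. The median by strain moved from 0.04 to -0.29 with 1 library size per embryo, by the construction of that scaling. The median by cross moved from 0.09 to -0.010 when the replicate number was a block. Replicates of both crosses share only a number (deviations correlated at 0.004 to 0.11), and 0 genes were called with that block. The cause of that move was not tested. No called gene changed direction under any alternative; 16 of the 49 named genes not called by parent, and 24 of 49 by cross, changed sign in at least 1 alternative. Depth limits Ccnd2, Cdc25b, Cdk9 and Mad2l1, each with 63 to 212 reads in all.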
